A study of Homo sapiens with 4 samples.

Results

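Cytosolic heat shock chaperones were followed here through 10 genes picked by symbol, out of 26364 gene symbols in the count table, in polysome libraries of HCT116 cells. HCT116 is a human colorectal carcinoma line. The genes were HSPA1A, HSPA1B, HSPA8, HSPA4, HSPH1, HSP90AA1, HSP90AB1, DNAJB1, DNAJA1 and HSF1. All 10 had a row and all 10 passed the filter on low counts. A polysome is an mRNA with several ribosomes on it, and polysomes of different size can be parted by sedimentation. Cytoplasmic extracts of cells labelled Dicer1 knockout and of wild type cells were each split into heavy polysomes (10 or more ribosomes per mRNA) and light polysomes (9 or fewer). This made 4 libraries, with 1 in each group. The labels name no clone, culture or treatment and do not say how the knockout was made or whether the libraries came from separate cultures.

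Heat shock proteins of the cytosol bind unfolded protein and help it to fold. HSP70 proteins hold short exposed stretches of a client and release them in a cycle driven by ATP. J-domain proteins bring clients to HSP70 and start ATP hydrolysis, and HSP110 proteins exchange the nucleotide so that the client is released. HSP90 dimers take over later steps, such as the folding of kinases and steroid receptors. The transcription factor HSF1 turns on many of these genes under stress by binding repeats of a short DNA unit, the heat shock element. It is no chaperone itself and stands in the group as the regulator.

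Library totals ran from 17457116 to 20933675 counts. The 10 genes together took 1.73% of the counts of the labelled knockout heavy library (exact 95% limits 1.72 to 1.731%) and 0.589% of the labelled knockout light library (0.5856 to 0.5928%). They took 1.32% of the wild type heavy library (1.315 to 1.324%) and 0.350% of the wild type light library (0.3471 to 0.3523%). These limits, and all counting intervals given here, cover counting error only. DICER1 mRNA was higher, not lower, in the libraries labelled knockout, at 925 counts (heavy) and 889 counts (light), against 500 and 547 counts in the wild type. The name "labelled knockout" is therefore kept, and every direction between the genotypes rests on that label. The log2 ratio of DICER1 was 0.95 in heavy polysomes, with a 95% counting interval of 0.79 to 1.11, and 0.96 in light ones, with 0.81 to 1.11. The epithelial markers EPCAM, KRT8, KRT18, KRT19 and CDH1 had at least 719 counts in every library. Of 15 markers of other cell types, 12 had no more than 16 counts in any library, PTPRC and CD3E among them at 0. COL1A1, ACTA2 and CD68 had 162 to 911. The RNA45S5 row, ribosomal RNA, held 4.32% of the labelled knockout heavy (4.308 to 4.326%) and 5.97% of the labelled knockout light library (5.954 to 5.977%), against 2.61% (2.607 to 2.621%) and 3.59% (3.577 to 3.594%) in the wild type.

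Per kilobase of transcript, the HSP90 genes and HSPA8 were the most abundant of the group. The level was expressed in CPM, counts scaled to a common library size corrected by TMM (trimmed mean of M-values), and divided by the length of the GENCODE canonical transcript. HSP90AB1, the constitutive HSP90, averaged 1485 CPM per kilobase over the 4 libraries (range 424 to 2563), and HSP90AA1, the inducible HSP90, 1106 (182 to 2205). HSPA8, the constitutive HSP70, averaged 733 (371 to 1285). HSP90AB1 exceeded HSP90AA1 in 3 of 4 libraries, and HSP90AA1 exceeded HSPA8 in 3 of 4, so that these neighbours changed places in 1 library each. Every library had HSPA8 above DNAJB1, a stress-inducible J-domain protein, which averaged 146 (89.8 to 189.7) and exceeded the next gene in 3 of 4. Next came DNAJA1, another J-domain protein, at 100.2 (23.0 to 191), and HSPA4, an HSP110, at 82.3 (26.0 to 132). HSF1 followed at 55.8 (48.7 to 71.2) and HSPH1, the inducible HSP110, at 45.4 (15.0 to 81.6). DNAJA1 and HSPA4, HSPA4 and HSF1, and HSF1 and HSPH1 were in the given order in only 2 of 4 libraries, and their ranges overlapped. HSPA1B, the stress-inducible HSP70, averaged 33.5 (5.20 to 76.3), below HSPH1 in all 4 libraries. HSPA1A, its near-identical copy, was listed at 0.951 (0.208 to 2.16). Of windows of 50 bases, 71.6% in the HSPA1B transcript and 75.1% in that of HSPA1A also occur in another member. The levels of this pair were divided by the whole transcript length, so their places in the order are uncertain.

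**Figure D1:**
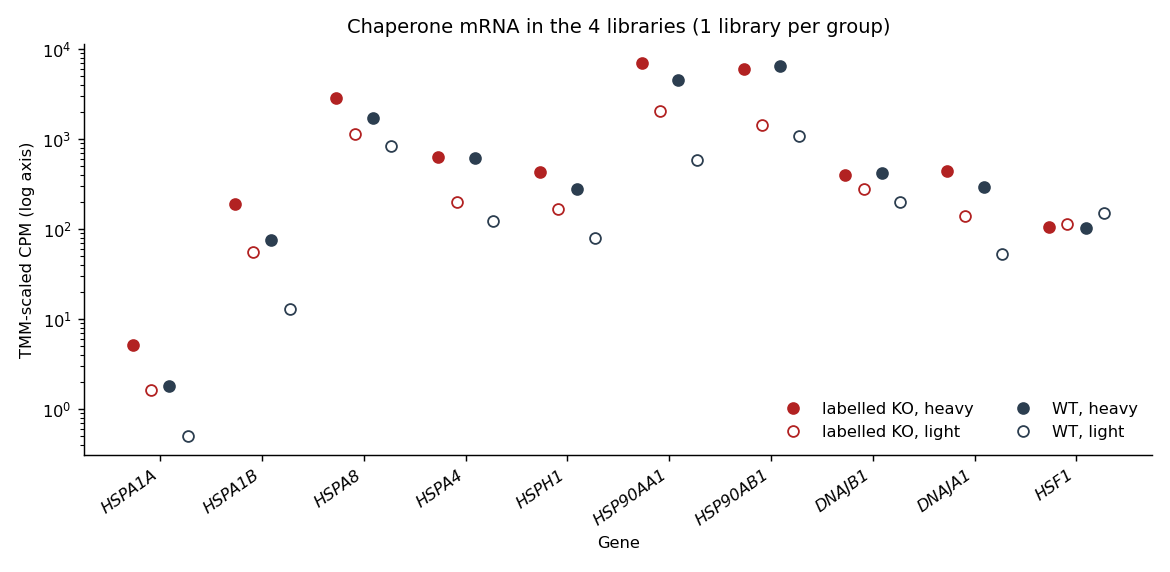
TMM-scaled CPM (log axis) of each gene in the 4 libraries, 1 point per library, in red for the labelled knockout and dark blue for the wild type, filled for heavy and open for light polysomes. Heavy points lie above light points of the same genotype for every gene but HSF1.

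In heavy over light polysomes, 9 of the 10 mRNAs rose and HSF1 did not pass the test. The comparison asked which mRNAs carry many ribosomes. The 4 libraries were fitted together with the genotype as a block. The 1 residual degree of freedom is the disagreement of the 2 genotypes, and edgeR draws each gene's spread toward a trend over all genes. The members had a median log2 ratio of 1.86 (range -0.32 to 2.37), while the 13574 genes tested had a median of -0.07. Among all genes tested, 30.0% were called toward heavy polysomes and 29.3% toward light ones, and 0 of the members were called toward light ones by edgeR (0 also at an unadjusted p under 0.05, and 0 by DESeq2). With library totals as the only scaling, 3195 genes passed the test in the heavy direction and 5023 in the light direction, against 4074 and 3977 with TMM. The median ratio of all genes was then -0.07 in the labelled knockout and -0.25 in the wild type, against 0.09 and 0.05 with TMM. All p-values in this comparison are from edgeR's quasi-likelihood test, adjusted over all genes tested (Benjamini-Hochberg). The p-values measure only the spread between these libraries, which may be technical. Because that spread is partly shared over genes, they do not show how well the genotypes agree for 1 gene. HSP90AA1 and HSP90AB1 had an SE of 0.36 each. Their log2 heavy to light ratios differed between the genotypes by -1.15 and -0.51 (labelled knockout minus wild type).

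The HSP90 mRNAs had the highest fitted ratios with all 4 libraries. That order changed with 1 library left out: without the labelled knockout light library HSPA1B stood at 3.41, HSP90AA1 at 3.35 and HSP90AB1 at 2.59. HSP90AA1 (chromosome 14, 102080742 to 102139699, minus strand, GRCh38) had 7119 CPM in heavy and 2044 in light polysomes of the labelled knockout, and 4534 in heavy and 588 in light polysomes of the wild type. Both heavy libraries were above both light ones. The fitted heavy to light difference was 2.37 on the log2 scale (SE 0.36, edgeR adjusted p = 9.67e-10). HSP90AB1 (chromosome 6, 44246166 to 44253888, plus strand) had 6113 and 1438 CPM in heavy and light polysomes of the labelled knockout, and 6548 and 1083 in those of the wild type. The heavy libraries were again the upper pair, and the fitted log2 difference was 2.34 (SE 0.36, edgeR adjusted p = 1.06e-09). Over their coding sequences these genes are 75.5% identical.

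Among the HSP70 genes, the constitutive HSPA8 had a lower fitted ratio than the inducible HSPA1A and HSPA1B, a difference that was not tested. HSPA8 (chromosome 11, 123057489 to 123063230, minus strand) had 2909.9 and 1159 CPM in heavy and light polysomes of the labelled knockout, and 1729 and 839 in those of the wild type. The fitted log2 difference, 1.19 (SE 0.33, edgeR adjusted p = 0.00108), was below the median of the members. HSPA1B (chromosome 6, 31827738 to 31830254, plus strand) had 192 and 55.1 CPM in heavy and light polysomes of the labelled knockout, and 76.8 and 13.1 in those of the wild type. The wild type light library was the lowest of the 4 and both heavy libraries were above both light ones. The fitted log2 difference of HSPA1B was 2.17 (SE 0.28, edgeR adjusted p = 1.35e-12). HSPA1A (chromosome 6, 31815543 to 31817946, plus strand) had only 94 and 30 counts in heavy and light polysomes of the labelled knockout, and 34 and 11 in those of the wild type. The fitted log2 difference was 1.73 (SE 0.39, edgeR adjusted p = 4.22e-05). The HSP70 values moved with single libraries. Without the labelled knockout heavy library and the block, HSPA1A stood at 0.785, HSPA1B at 1.19 and HSPA8 at 0.811, so that HSPA1A was no longer above HSPA8. Without the labelled knockout light library they stood at 2.84, 3.41 and 1.51.

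HSPA1A and HSPA1B cannot be counted apart over most of their length. Their coding sequences match at 1922 of 1926 bases (99.8%), and the encoded proteins at 641 of 641 residues. Of windows of 50 bases in the coding sequence, 91.7% occur in both genes, whereas no window centred in their untranslated regions does. How the submitters treated reads that match both genes is not given in the sources used here, and each of these rows is uncertain. In release 44 of GENCODE another gene on the same strand covers 36.6% of the exon bases of HSPA1B. HSPA8, HSP90AA1, HSP90AB1, DNAJA1 and DNAJB1 have 17, 5, 6, 6 and 3 pseudogenes named after them in GENCODE (for the HSP90 genes, after their subfamily), which may take or give reads.

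The HSP110 and J-domain mRNAs had log2 differences from 0.78 to 2.05. HSPA4 (chromosome 5, 133052013 to 133106449, plus strand) had 632 and 198 CPM in heavy and light polysomes of the labelled knockout, and 617 and 124 in those of the wild type. Both heavy libraries were above both light ones, with a log2 difference of 1.99 (SE 0.32, edgeR adjusted p = 6.74e-09). HSPH1 (chromosome 13, 31134973 to 31162388, minus strand) had 428 and 166 CPM in the labelled knockout and 280.1 and 78.8 in the wild type, heavy before light, with a log2 difference of 1.60 (SE 0.30, edgeR adjusted p = 1.10e-06). DNAJA1 (chromosome 9, 33025273 to 33039907, plus strand) had 443 and 141 CPM in heavy and light polysomes of the labelled knockout, and 291 and 53.3 in those of the wild type. Its ratio of 2.05 (SE 0.31, edgeR adjusted p = 7.64e-10) was close to those of the HSP90 genes, although its coding sequence is much shorter. DNAJB1 (chromosome 19, 14514769 to 14560391, minus strand) had 396 and 283 CPM in heavy and light polysomes of the labelled knockout, and 425 and 201 in those of the wild type. With a log2 difference of 0.78 (SE 0.31, edgeR adjusted p = 0.0204) it had the largest adjusted p of the 9 called genes. Its exon bases overlap those of TECR on the opposite strand over 6.4%, and those of HSPA8 overlap an opposite gene over 11.4%. The strand setting of the counting is not given in the sources used here, so these reads cannot be told apart.

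HSF1 (chromosome 8, 144291591 to 144314720, plus strand) was the exception. It had 107 and 114 CPM in heavy and light polysomes of the labelled knockout, and 104 and 152 in those of the wild type. The light library was the higher in each genotype. The log2 heavy to light ratio was -0.32 (SE 0.28, edgeR adjusted p = 0.316), so HSF1 was not called toward either fraction. The interval of its ratio from counting alone was below 0 in both genotypes (-0.18 to -0.00 in the labelled knockout, -0.63 to -0.47 in the wild type).

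**Figure D2:**
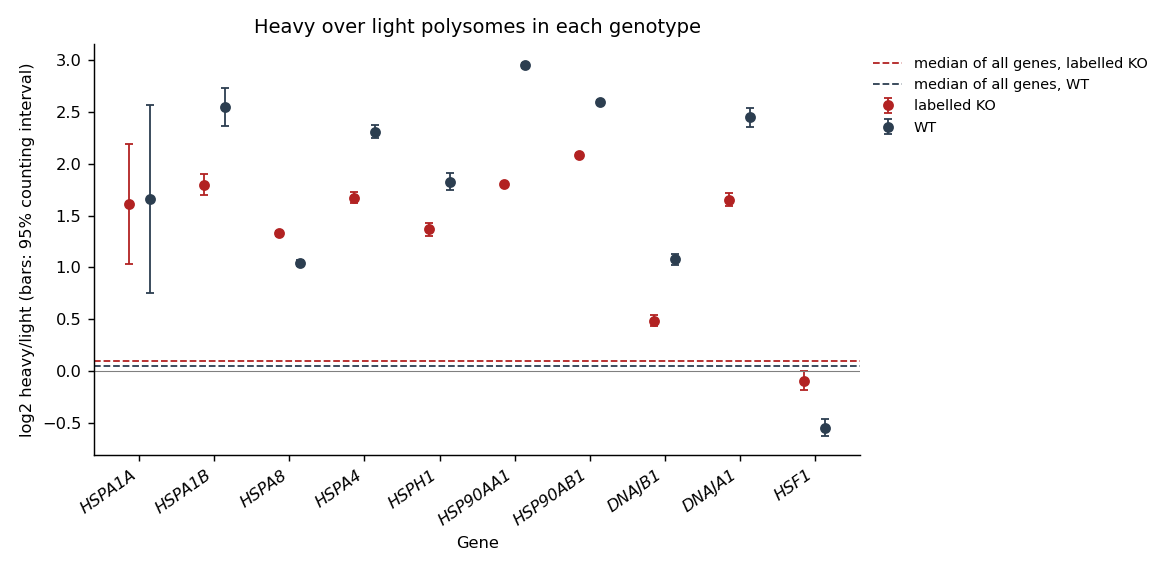
Log2 heavy over light ratio of each gene in the labelled knockout (red) and the wild type (dark blue), with 95% counting intervals, and dashed lines for the median of all genes with at least 50 counts in every library (0.09 and 0.05). HSF1 lies below both lines and the other genes above them, and the 2 genotypes differ most for HSP90AA1.

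The calls of 4 genes did not hold in every alternative fit. Without the block and with all 4 libraries, HSPA1A (log2 difference 1.72, edgeR adjusted p = 0.0730) and DNAJB1 (0.762, 0.0693) were not called. Leaving out a library also took away the block, so these fits change both. Without the wild type light library 5 of the 10 genes were called, and HSPA1A (1.09, edgeR adjusted p = 0.306), HSPA1B (1.28, 0.0606), HSPA8 (0.995, 0.0674) and DNAJB1 (0.528, 0.241) were not. Without the labelled knockout heavy library 6 were called, and HSPA1A (0.785, edgeR adjusted p = 0.476), HSPA8 (0.811, 0.142) and DNAJB1 (0.833, 0.126) were not. Without the wild type heavy library DNAJB1 was not called (0.726, edgeR adjusted p = 0.209). With library totals as the only scaling it was at 0.548 (edgeR adjusted p = 0.0624).

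A longer reading frame can hold more ribosomes, so the chaperone mRNAs were set against genes of like coding length. Among genes with a coding sequence within 20% of that of the member, the member's rank was read in each genotype. DNAJA1 (1194 nucleotides) had a higher heavy to light ratio than 98.6% of 2339 such genes in the labelled knockout and 98.5% in the wild type. HSP90AA1 (2199) was above 94.7% and 99.1%, and HSP90AB1 (2175) above 98.4% and 96.3%. HSPA1B (1926) was above 96.6% and 96.3%, and HSPA1A, of the same length, above 93.4% and 81.6%. DNAJB1 has the shortest coding sequence of the group (1023). It was above 79.2% and 83.4% of the genes of its length, whose median log2 ratios were -0.16 and -0.14, so its low ratio within the group went with a high place among short mRNAs. HSPA4 (2523) stood above 90.6% and 91.4%, and HSPH1 (2577), the longest, above 81.5% and 81.0%. HSPA8 (1941) was above 85.9% of genes of its length in the labelled knockout and 65.3% in the wild type. HSF1 (1590) was above 30.5% and 23.9%. These ranks are descriptions of the libraries and were not tested.

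**Figure D3:**
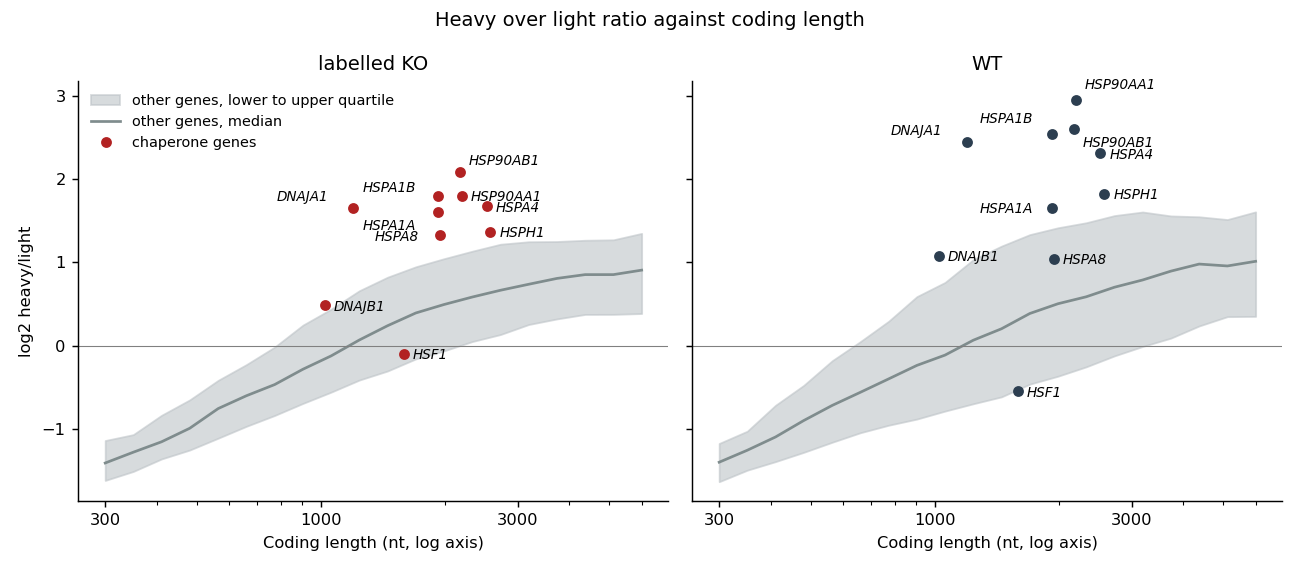
Log2 heavy over light ratio against coding length (nucleotides, log axis), labelled knockout at left and wild type at right. Points are the chaperone genes, the grey line is the median of the other genes within 20% of each length and the band runs from their lower to their upper quartile. HSF1 lies under the line and the other genes lie above it in both panels.

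The genotypes were then compared fraction by fraction, 1 library against 1, which allows no test and no p-value. In heavy polysomes the members had a median log2 ratio of 0.61, against a median of -0.03 over 10834 genes with at least 50 counts in every library. Of the 10 members 8 were above 0, beside 47.1% of all these genes, and 2 were at least 2-fold higher, beside 2.72%. In light polysomes the members' median was 0.87, against 0.02 over all genes. There 9 of 10 were above 0, beside 51.7% of all genes, and 5 were at least 2-fold higher, beside 3.64%. In neither fraction was a member 2-fold lower. HSPA1A was under the minimum of 50 counts in some libraries and is counted among the 10 members but not among all genes. Without it the members' medians were 0.61 in heavy and 0.67 in light polysomes. In such bulk libraries, fewer cells of a type and less RNA per cell cannot be told apart, nor can the amount of an mRNA and the number of ribosomes it carries within 1 fraction.

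The inducible HSP70 genes had the largest genotype ratios of the group in heavy polysomes, and HSPA1B also in light ones. The HSPA1B level was 192 CPM in labelled knockout heavy against 76.8 in wild type heavy polysomes, a log2 ratio of 1.32 (95% counting interval 1.23 to 1.41). In light polysomes it was 55.1 against 13.1 CPM, a log2 ratio of 2.07 (1.88 to 2.25), or 4.19-fold. HSPA1A gave 1.48 (0.93 to 2.03) in heavy and 1.53 (0.60 to 2.45) in light polysomes, with wide intervals from its few counts. With both rows summed the log2 ratios were 1.33 (1.24 to 1.41) and 2.05 (1.87 to 2.24).

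The other genes divided by fraction. HSPA8 was the 1 gene with a larger genotype difference in heavy (0.75, counting interval 0.73 to 0.77) than in light polysomes (0.47, 0.44 to 0.49), apart from HSF1. HSP90AA1 was higher by 0.65 (0.64 to 0.66) in heavy and by 1.80 (1.77 to 1.83) in light polysomes, so that the light level was 3.48-fold that of the wild type. DNAJA1 (0.61, 0.56 to 0.66, and 1.40, 1.30 to 1.50) and HSPH1 (0.61, 0.56 to 0.66, and 1.07, 0.99 to 1.16) went the same way. HSPA4 had nearly the same heavy level in both genotypes, with 632 and 617 CPM and a log2 ratio of 0.03 (-0.00 to 0.07), which was -0.01 with DESeq2's size factors. Its light level was higher in the labelled knockout by 0.67 (0.60 to 0.74). HSP90AB1 was -0.10 (-0.11 to -0.09) in heavy and 0.41 (0.38 to 0.43) in light polysomes, and DNAJB1 -0.10 (-0.15 to -0.06) and 0.49 (0.43 to 0.55). HSF1 mRNA itself was at 0.04 (-0.06 to 0.13) in heavy and at -0.42 (-0.50 to -0.34) in light polysomes, the lowest value of the 10 in light polysomes.

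**Figure D4:**
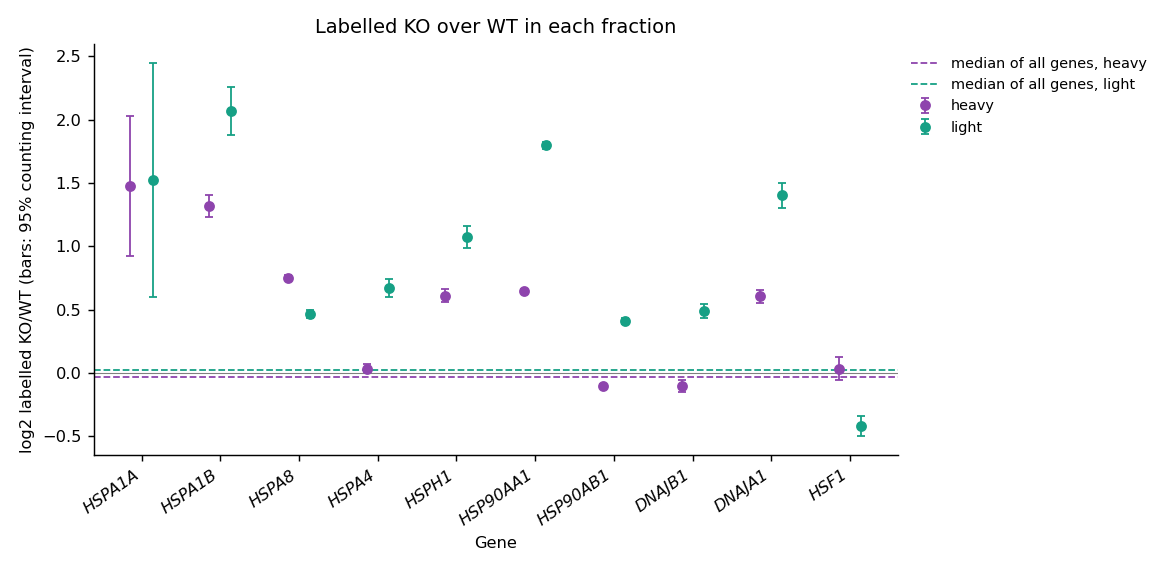
Log2 ratio of labelled knockout over wild type for each gene in heavy (purple) and light (green) polysomes, with 95% counting intervals and dashed lines for the median of all genes (-0.03 and 0.02). HSPA1A and HSPA1B are highest in heavy polysomes, and HSPA1B and HSP90AA1 in light ones.

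Set side by side, the members of each family had these genotype ratios. Within HSP90, inducible HSP90AA1 stood at 0.65 and 1.80 in heavy and light polysomes and constitutive HSP90AB1 at -0.10 and 0.41. Within HSP70, HSPA1B stood at 1.32 and 2.07 and HSPA8 at 0.75 and 0.47. Within the HSP110 proteins, HSPH1 stood at 0.61 and 1.07 and HSPA4 at 0.03 and 0.67. Of the J-domain genes, DNAJA1 stood at 0.61 and 1.40, and stress-inducible DNAJB1 was the lower of the pair, at -0.10 and 0.49. The differences within these pairs were not tested.

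The shift, taken as the difference between the genotypes in log2 heavy over light (labelled knockout minus wild type), was below 0 for 8 of 10 members, beside 53.5% of all genes. Its median was -0.55 for the members and -0.05 for all genes, and with library totals as the only scaling -0.41 and 0.09. One member, HSP90AA1, shifted at least 2-fold toward light polysomes (-1.15, counting interval -1.18 to -1.12), beside 2.37% of all genes. The shift was -0.80 for DNAJA1, -0.75 for HSPA1B, -0.64 for HSPA4, -0.59 for DNAJB1, -0.51 for HSP90AB1 and -0.46 for HSPH1. HSPA1A was at -0.05 with an interval from -1.12 to 1.03. HSPA8 (0.29, 0.25 to 0.32) and HSF1 (0.45, 0.33 to 0.57) were above 0.

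Negative shifts were common among all mRNAs that were heavy in the wild type. The heavy to light ratios of all genes spanned 1.35 log2 units between the quartiles in the labelled knockout and 1.84 in the wild type. Each member was therefore set against genes whose wild type ratio lay within 0.25 of its own. Since the shift contains the wild type ratio, the 2 measures are not independent. The members' shifts less the median of those genes had a median of 0.10, with 7 of 10 above 0, so that the negative median of the group was not seen against this background. For DNAJA1 the 392 genes of like ratio had a median shift of -0.79, close to its own. HSPA1B differed from the median of its 323 genes by 0.04 and HSPA4 from that of its 500 by 0.10. HSP90AA1 differed by -0.27 from its 119 genes, above 16.8% of them, and DNAJB1 by -0.27 from its 1241, above 19.1%. HSPA8 was 0.59 higher than the median of 1232 genes of like ratio, which was -0.31, and above 95.9% of them. The light-fraction genotype ratios less the same background had a median of 0.45, with 8 of 10 above 0. They were highest for HSPA1B (1.34), HSPA1A (1.12), HSP90AA1 (0.94), DNAJA1 (0.72) and HSPH1 (0.62), and were 0.04 for HSPA4, -0.28 for HSF1 and -0.36 for HSP90AB1. With no background taken off, all 5 epithelial markers were above 0 in light polysomes (median 0.95) and 3 of 5 in heavy ones (median 0.14). The members' medians on that measure were 0.87 in light and 0.61 in heavy polysomes. The summed level of the 15 markers of other cells was 77.5 CPM in heavy and 37.2 CPM in light polysomes with the knockout label, and 71.2 and 41.7 CPM in the wild type. Its 3 genes above 16 counts moved in different directions. COL1A1 was higher with the knockout label, by log2 ratios of 1.02 in heavy and 0.82 in light polysomes, and CD68 was lower, at -0.89 and -0.36. ACTA2 had 177 and 162 counts in heavy and light polysomes with the knockout label, and 311 and 385 in the wild type. The part of these differences, and of the ribosomal RNA share, in the members' values was not tested.

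**Figure D5:**
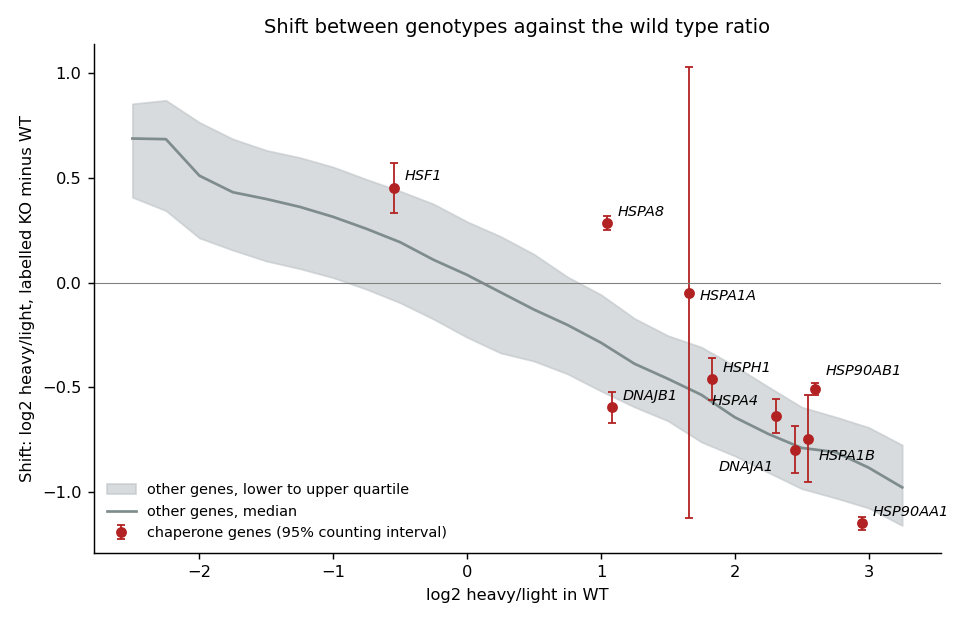
Shift of the log2 heavy over light ratio (labelled knockout minus wild type) against the wild type ratio. Red points are the chaperone genes with 95% counting intervals, the grey line is the median of other genes within 0.25 of each wild type ratio and the band runs from their lower to their upper quartile. HSPA8 (0.29), HSPA1A (-0.05) and HSP90AB1 (-0.51) lie above the band, HSF1 (0.45) at its upper edge, HSP90AA1 (-1.15) and DNAJB1 (-0.59) below it, and the other genes within it.

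The promoters of the HSP70 genes hold paired units of the heat shock element, which are shown because the inducible pair had the largest genotype ratios in heavy polysomes. The element is made of GAA units and their complement TTC. The pairs GAANNTTC and TTCNNGAA read the same on both strands and were searched from 250 bases before to 50 bases after the RefSeq start (GRCh38.p14). The first is found in 6.87% and the second in 7.84% of 27305 such windows. Of 9 members with a window in the table, 4 held a pair, namely HSPA1A, HSPA1B, HSPA8 and DNAJA1. A run of 3 units (GAANNTTCNNGAA or TTCNNGAANNTTC, each holding both pairs) was found in HSPA8 and DNAJA1, beside 0.487% of all windows. HSPA8 held it at 2 places, and HSPA1A and HSPA1B held none. The 250 bases before the start are printed 5′ to 3′, with the pairs in capitals. HSPA1A lies at chr6:31815293-31815542 (plus strand), HSPA1B at chr6:31827488-31827737 (plus strand) and HSPA8 at chr11:123062137-123062386 (minus strand).
HSPA1A: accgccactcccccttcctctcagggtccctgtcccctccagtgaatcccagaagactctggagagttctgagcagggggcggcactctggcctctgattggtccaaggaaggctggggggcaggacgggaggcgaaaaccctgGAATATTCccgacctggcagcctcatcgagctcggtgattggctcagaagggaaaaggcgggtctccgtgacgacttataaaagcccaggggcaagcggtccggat
HSPA1B: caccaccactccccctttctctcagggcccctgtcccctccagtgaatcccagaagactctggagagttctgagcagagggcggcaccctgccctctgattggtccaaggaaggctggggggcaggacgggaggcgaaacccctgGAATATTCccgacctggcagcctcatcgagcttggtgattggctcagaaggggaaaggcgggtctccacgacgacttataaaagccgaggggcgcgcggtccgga
HSPA8: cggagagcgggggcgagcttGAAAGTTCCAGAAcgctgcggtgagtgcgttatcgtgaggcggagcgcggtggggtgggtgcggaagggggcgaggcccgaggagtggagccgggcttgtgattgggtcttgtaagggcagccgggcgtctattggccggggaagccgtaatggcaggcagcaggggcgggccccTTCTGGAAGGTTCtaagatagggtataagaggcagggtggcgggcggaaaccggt

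The HSPA1A and HSPA1B windows are 93.6% identical and hold the same pair, whose first base lies 106 and 105 bases before the start. In HSPA8 the pairs overlap, sharing the middle unit, and the elements begin 230 and 55 bases before the start. In DNAJA1 one pair begins 198 bases before the start, and its row of 3 units lies just after the start. No pair was found in the windows of HSPA4, HSPH1, HSP90AA1, HSP90AB1 and DNAJB1, which says only that these letters are not in these windows. The RefSeq start used for HSPH1, HSP90AB1, DNAJB1 and HSP90AA1 lies 484, 907, 10874 and 52705 bases from the start of the GENCODE canonical transcript, so these windows may belong to other starts.

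MicroRNA sites in the 3′ untranslated regions were looked up because DICER1 makes microRNAs by cutting their precursors. For 12 microRNAs, the complement of the seed (bases 2 to 8) was searched in the canonical transcripts, and 10 sites were found in 6 of the 10 members (60.0%). Among 10575 genes with at least 50 counts in every library, 73.8% hold a site for any of the 12, with sites for 2.15 of them on average, against 0.9 for the members. The lengths of the untranslated regions were not matched. Of the 10 sites, 3 lie in HSPA1B, which has 2 sites for miR-16-5p and 1 for miR-34a-5p. Of the same 10575 genes, 25.4% hold a site for the first and 17.9% for the second, and for single microRNAs of the 12 the share ran from 10.1 to 25.6%. The mature microRNAs are shown 5′ to 3′ as RefSeq gives them (GRCh38.p14), with the seed in capitals, and below them the HSPA1B sites from GENCODE with 7 bases on either side and the site in capitals.
miR-16-5p: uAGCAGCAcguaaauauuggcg
miR-34a-5p: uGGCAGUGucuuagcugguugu
HSPA1B site for miR-16-5p from base 59: aggacttTGCTGCTgttttcc
HSPA1B site for miR-16-5p from base 97: agctcttTGCTGCTtcacttc
HSPA1B site for miR-34a-5p from base 242: gaatcaaCACTGCCaccttct

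HSPA1A, with nearly the same coding sequence, has no site for any of the 12. Its 3′ untranslated region is 49.7% identical to that of HSPA1B over the alignment. DNAJA1 has 1 site for miR-16-5p and DNAJB1 1 for miR-34a-5p and 1 for miR-19b-3p. HSPA8 has 1 for miR-17-5p, HSPA4 1 each for miR-141-3p and miR-92a-3p, and HSPH1 1 for miR-27a-3p. HSP90AA1, HSP90AB1 and HSF1 have none for any of the 12, and 5 of the 12, let-7a-5p, miR-21-5p, miR-200b-3p, miR-30a-5p and miR-24-3p, have no site in a member. A match of letters is a description, and binding or repression was not measured.

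The co-chaperones that work with HSP90 and HSP70 had lower median heavy to light ratios than the 1.86 of the chaperones, a difference that was not tested. Coding length, 1023 to 2577 nucleotides in the members, was not matched for the lists here and below. PTGES3, HSPB1 and HSBP1 have 483, 618 and 231 nucleotides, and BAG6 has 3489. Genes with a coding length near 481 nucleotides had a median wild type ratio of -0.90, and those near 1990 had 0.51. The part of coding length in the differences between lists was not tested. Over all genes tested, 30.0% were called heavy and 29.3% light, which are the shares to set beside each list here and below. Of 16 HSP90 co-chaperones, 7 were called heavy and 2 light (median log2 ratio 0.49). STIP1, which links HSP70 to HSP90, rose by 2.73 (SE 0.34, edgeR adjusted p = 4.81e-14), and PTGES3, the p23 co-chaperone, was not called, at -0.57 (SE 0.32, adjusted p = 0.113). Of 11 HSP70 nucleotide exchange and tail-binding factors, 4 were called heavy and 3 light (median 0.28), with BAG6 at 2.20 (SE 0.32, edgeR adjusted p = 1.80e-10) and ST13 at 0.93 (SE 0.29, adjusted p = 0.00371). Of 12 other cytosolic J-domain genes, 3 were called heavy (median 0.26), with DNAJA2 at 1.21 (SE 0.29, edgeR adjusted p = 0.000112) and DNAJC8 not called (0.31, adjusted p = 0.375). Of the HSP90 co-chaperones, 15 had at least 50 counts in every library. Their genotype medians were -0.07 in heavy and 0.16 in light polysomes. In light ones 9 of 15 were above 0, beside 51.7% of all genes. STIP1 stood at 0.20 and 1.39. The HSP70 factors had medians of -0.20 and -0.00 and the other J-domain genes of 0.20 and 0.05.

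Among further relatives, 3 of 6 tested HSP70 and HSP110 genes of the cytosol were called heavy, with HSPA4L at 1.74 (SE 0.27, edgeR adjusted p = 1.37e-09) and HSPA14 not called (-0.47, adjusted p = 0.111). HSPA14 was lower in the labelled knockout, at -0.94 and -1.04, and HSPA4L was at 0.43 and 1.21. Of the small heat shock proteins 3 could be tested and 2 were called light. HSPB8 was at -0.74 (SE 0.27, edgeR adjusted p = 0.0135), and HSPB1, by far the most abundant of them with 11251 to 20995 counts, was not called (0.60, adjusted p = 0.0972). HSPB1 was at 0.18 and 0.98 between the genotypes. Of 4 other heat shock factor genes tested, 1 was called heavy and 2 light, with HSF2 at 1.69 (SE 0.27, edgeR adjusted p = 4.94e-09) and HSBP1, a small protein that binds heat shock factor, at -1.71 (SE 0.32, adjusted p = 5.18e-07). HSF2 was at -0.29 in heavy and 0.53 in light polysomes between the genotypes and HSBP1 at -0.04 and -0.05.

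The list of other known HSF1 targets shares genes with the lists above. Of 17 tested, 9 were called heavy and 2 light (median 0.62), UBB among them at 0.98 (SE 0.34, edgeR adjusted p = 0.00773). Between the genotypes their medians were 0.04 in heavy and 0.64 in light polysomes, with 12 and 15 of 17 above 0, and 0 and 2 at least 2-fold higher. Over all genes with at least 50 counts in every library, 47.1% and 51.7% were above 0, and 2.72% and 3.64% at least 2-fold higher. UBB was at -0.37 and 0.52, and 29.4% of its exon bases overlap a gene on the opposite strand. The relatives in other compartments served for comparison. In the endoplasmic reticulum, 6 of 8 were called heavy (median 1.28), and their genotype medians were 0.05 and 0.88. HSP90B1 was at -0.06 in heavy and 1.45 in light polysomes, and HSPA5, the HSP70 of that compartment, at -0.03 and 0.95. In mitochondria, 4 of 8 were called heavy and 2 light (median 0.71), with genotype medians of -0.39 and 0.07. HSPA9, the mitochondrial HSP70, was at -0.45 and 0.72 and HSPD1, the mitochondrial chaperonin, at 0.04 and -0.10. No gene of these lists was past 2-fold in heavy and in light polysomes alike.

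The 5 genes whose pattern was nearest to the median profile of the members were ANKFY1, ALG1, NUP210, PRAME and PTK7. Likeness was the Euclidean distance over 3 log2 values (heavy over light in each genotype, and labelled knockout over wild type in heavy polysomes), from 0.0971 for ANKFY1 to 0.161 for PTK7, over the 4 libraries. ANKFY1 had 1025 and 341 counts in heavy and light polysomes of the labelled knockout, and 687 and 201 in those of the wild type.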

How the data were processed

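RNA from heavy and light polysomes of HCT116 cells was measured in 4 libraries, 1 per group. The table deposited by the authors gives raw read counts for each gene as whole numbers. The submitters' processing notes name hg19, HTSeq, STAR and CASAVA, with versions, annotation, strand setting and the treatment of multi-mapping reads not given in the sources used here. No value column was left without a sample.

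Heavy against light was fitted over all genes with edgeR 4.0.16 in R 4.3.3 (TMM, filterByExpr, quasi-likelihood test, genotype as block, adjusted p under 0.05). The labels carry no replicate numbers. The fit was tested on simulated counts in which few genes changed, equally in both directions and alike in both genotypes. That setting differs from these data, so the test cannot give the error rate here. The genotype ratios and the shift, with 1 library per side, are log2 ratios of TMM-scaled CPM with a prior count of 2 and 95% counting intervals, and 2-fold was the size counted. For all genes, at least 50 counts in every library were required (10834 genes). Totals of 17457116 to 20933675 put the floor of 3 counts at 0.136 to 0.166 CPM. Of 26364 symbols, 24427 matched GENCODE release 44 (GRCh38), which gave positions, lengths and transcripts, and counts stayed those made on hg19. Promoters and mature microRNAs came from RefSeq. Alignments used Biopython 1.88, and tables Python 3.11.15, numpy 2.4.6 and pandas 2.3.3.

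The members, lists and tests were chosen with earlier results of these data known, and the motif and microRNA searches and the coding length comparison after the members' values had been seen. Named in other lists are the 2 genes with the highest mean CPM per list and any past 2-fold in both fractions. Alternatives were library totals, DESeq2 1.42.0 and its size factors, no filter, no block, a prior count of 0.5, the RNA45S5 row left out, a minimum of 100 counts, and leaving out each library or gradient.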

Additional observations from a re-analysis of the deposited data

Results flagged for a closer look

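HSP90AB1 and DNAJB1 stood on opposite sides of 0 in the comparison of the labelled knockout with the wild type, slightly below it in heavy polysomes and above it in light ones, with counting intervals off 0 in both fractions. The log2 ratios of HSP90AB1 were -0.10 in heavy and 0.41 in light polysomes, a shift of -0.51. Those of DNAJB1 were -0.10 and 0.49, a shift of -0.59. With library totals as the only scaling the heavy ratios of HSP90AB1 and DNAJB1 were -0.04 and -0.05. DESeq2's size factors gave -0.14 and -0.15. The counting intervals do not cover the choice of scaling. The difference between the fractions was not tested, since each side has 1 library. With TMM the median of all genes was -0.03 in heavy and 0.02 in light polysomes. Genes with a wild type heavy to light ratio within 0.25 of that of HSP90AB1 had medians of opposite sign too, -0.06 in heavy and 0.76 in light polysomes, and those around DNAJB1 had -0.10 and 0.22.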

How the results depend on the processing

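Each member kept the direction of its fitted heavy to light ratio under every alternative fit. The members called toward heavy polysomes numbered 9, and 5 to 9 when 1 library was left out without the block. In those fits 1868 to 2921 genes were called heavy (2524 without the labelled knockout heavy and 2288 without the wild type heavy library) and 1125 to 2059 light (1409 and 1367); with no replicate block 2183 were called light against 3977 with it, and 7 members were called heavy. The median of the members was 1.63 without the wild type gradient and 2.07 without the labelled knockout one, as values with no test. With library totals alone, the members' genotype medians were 0.667 in heavy and 0.787 in light polysomes and the median shift -0.408, and with DESeq2's size factors the shift was -0.646. With at least 100 counts in every library the light median was 0.672 and 1 member, not 2, was 2-fold higher in heavy polysomes. With HSPA1A and HSPA1B summed the light median was 0.672. Less the median of genes of like wild type ratio, the light median was 0.445 and the median shift reversed to 0.103. The heavy ratio of HSPA4 turned to -0.0104 with DESeq2's size factors. The cause was not tested. DESeq2 called 9 members. Depth limits HSPA1A alone among the members, with 11 to 94 counts. No genotype difference has a replicate.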
